A study of Homo sapiens with 9 samples.

Results

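Prostanoid genes of the human hepatocellular carcinoma (HCC) cell line MHCC97L were followed in its wild-type state and in the resistant lines MHCC97L-Src and MHCC97L-Oxa. The 10 genes are the cyclooxygenase genes PTGS1 and PTGS2, the prostaglandin E synthase genes PTGES, PTGES2 and PTGES3, the prostacyclin synthase gene PTGIS, the thromboxane synthase gene TBXAS1, the receptor genes PTGER2 and PTGER4, and the breakdown gene HPGD. They were taken by symbol from the 20030 genes of the deposited tables, and all 10 were found. MHCC97L cells were untreated. The MHCC97L-Src line was derived from it by growth in rising doses of saracatinib, an inhibitor of Src family kinases, and was stably resistant at 4 μmol/L. For MHCC97L-Oxa, also derived from MHCC97L, the level of stable resistance was 2 μmol/L of oxaliplatin, a platinum drug that damages DNA. All 3 lines were kept in the same medium with fetal bovine serum, and poly(A) RNA was sequenced in 3 libraries per line, 9 in all. Each resistant state is represented by 1 line selected over time in culture, so the drug and the history of that line cannot be told apart. The labels give the treatment as none for MHCC97L, saracatinib for MHCC97L-Src and oxaliplatin for MHCC97L-Oxa. Beyond this, the sources do not say whether the resistant cells were in drug when RNA was taken. The study's text describes the comparison of MHCC97L with MHCC97L-Src as 3 independent experiments, and does not repeat this for MHCC97L-Oxa. The labels do not say which cultures the libraries came from, and p-values measure the spread between these libraries.

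Prostanoids are lipid signals made from arachidonic acid, which phospholipases release from membranes. A cyclooxygenase turns the acid into prostaglandin H2, and terminal synthases turn that into prostaglandin E2, prostacyclin or thromboxane. PTGS1 is usually described as the constitutive cyclooxygenase, and PTGS2 as the form that mitogens and inflammation induce, often raised in tumors. Prostaglandin E2 acts through the receptors EP1 to EP4, of which EP2 (PTGER2) and EP4 (PTGER4) raise cyclic AMP.

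The lines differed most in PTGS1. Wild-type MHCC97L held 6.97 ± 0.469 CPM (counts scaled to the same total in every library, SD, n = 3 libraries), MHCC97L-Oxa 52.9 ± 3.31 and MHCC97L-Src 127 ± 6.76. PTGS2 stayed at 0 to 5 counts in every library. PTGES had the highest median FPKM of the members, a level per transcript length, and each MHCC97L-Oxa library lay below every library of the other lines for it. The set was chosen by the measured expression differences of PTGS1 and related genes between these lines, so the differences below describe these libraries and are not independent evidence. The test results are read from fits over all genes.

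The libraries held 16970486 to 18209213 counts on genes. A gene at or under 3 counts, 0.165 to 0.177 CPM, was regarded as not detectable, a floor that covers counting error only. MHCC97L replicate 1 stood apart. Its deviation from the 9-library mean followed the GC content of the genes with a Spearman's rho of -0.784 across 11839 genes, against -0.251 to 0.703 in the other 8 libraries, which describes the libraries only. Every resistant library had a positive rho, from 0.175 to 0.703, so GC content and line are not separate here. Leaving out MHCC97L replicate 1 gave 672 calls over all genes in MHCC97L-Src and 2251 in MHCC97L-Oxa. Leaving out MHCC97L replicate 2 gave 3419 and 2705. For the members, values that rest on MHCC97L replicate 1 are given with and without it where the call or the direction differed, or after a correction for GC content and length. The median log2 fold change of all genes tested was -0.16 for MHCC97L-Src and -0.19 for MHCC97L-Oxa against wild type, and under 3 scalings it lay between -0.23 and -0.07 for the first and between -0.21 and -0.12 for the other. The liver label was not borne out by hepatocyte markers. Of 10 such markers listed, 4 exceeded the floor in at least 1 library, all at low levels. The highest were SERPINA1, at means of 0.0562, 1.09 and 0.789 CPM in MHCC97L, MHCC97L-Oxa and MHCC97L-Src, and HNF4A, at 0.281, 0.446 and 0.403 CPM. ALB, AFP, APOB and TTR were at 0 in all 9 libraries, and of 5 epithelial markers the keratins KRT8 and KRT18 had means of 3198 and 1780 CPM in MHCC97L, while KRT19, EPCAM and CDH1 were at 0.411, 0.0374 and 0.994 CPM.

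GENCODE release 29 (GRCh38) places PTGS1 at chr9:122370530-122395703 on the + strand and PTGS2 at chr1:186671791-186680427 on the - strand. Windows of 240 bases upstream of the annotated starts are printed because PTGS1 and PTGS2 differed so much in level. They run from base 250 to base 11 before the start in RefSeq on GRCh38.p14, and are written 5′ to 3′ along the gene. PTGS1 is listed with 2 starts, whose windows are chr9:122370283-122370522 and chr9:122375052-122375291 on the + strand, and the PTGS2 window is chr1:186680434-186680673 on the - strand. Capitals mark matches on either strand to the TATA box letters TATAAA, to the cyclic AMP response element core TGACG, to the C/EBP-type letters GCAAT, to the GC box core GGGCGG or to the AP-1 letters TGANTCA.
PTGS1 start 1: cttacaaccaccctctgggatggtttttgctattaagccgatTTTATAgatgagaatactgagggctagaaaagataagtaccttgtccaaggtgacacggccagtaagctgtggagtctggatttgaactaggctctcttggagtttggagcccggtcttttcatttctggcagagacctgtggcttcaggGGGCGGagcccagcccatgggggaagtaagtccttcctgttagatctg
PTGS1 start 2: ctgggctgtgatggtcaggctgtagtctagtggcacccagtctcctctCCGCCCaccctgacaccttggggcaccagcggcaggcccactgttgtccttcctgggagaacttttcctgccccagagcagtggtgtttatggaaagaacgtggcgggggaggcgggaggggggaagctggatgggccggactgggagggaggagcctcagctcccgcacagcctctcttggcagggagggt
PTGS2: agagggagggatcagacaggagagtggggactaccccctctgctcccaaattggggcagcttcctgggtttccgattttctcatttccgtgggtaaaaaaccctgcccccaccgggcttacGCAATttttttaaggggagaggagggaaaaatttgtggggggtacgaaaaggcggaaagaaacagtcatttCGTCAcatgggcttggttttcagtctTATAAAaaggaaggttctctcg

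The PTGS2 window held TATAAA on the gene's strand at bases 32 to 27 before the start, TGACG on the opposite strand at bases 58 to 54 and GCAAT at bases 129 to 125. These 3 matches do not overlap one another. In the PTGS1 windows, TATAAA was found only in that of start 1, on the opposite strand at bases 208 to 203. GGGCGG lay at bases 58 to 53 of start 1 and, on the opposite strand, at bases 202 to 197 of start 2. TGANTCA was in none of the 3 windows. Of 35116 RefSeq windows of this length, 10.6% held TATAAA, 20.5% TGACG, 20.7% GCAAT, 41.4% GGGCGG and 6.43% TGANTCA. These are matches of letters and not shown binding sites. The PTGS2 window also overlaps an exon of PACERR, a noncoding RNA gene on the opposite strand.

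PTGS1, which encodes COX1, had 114, 131 and 127 counts in wild-type replicates 1 to 3. The MHCC97L-Oxa libraries held 1028, 937 and 887 counts, and those of MHCC97L-Src 2292, 2022 and 2261. The 3 lines were fully separated, with no overlap between any pair, and the highest library of a line exceeded its lowest by 1.13 to 1.16 times. An intronic noncoding RNA gene, AL162424.1, lies within PTGS1 on the same strand and is not a row of the tables. In FPKM (fragments per kilobase of transcript, scaled to the depth of the library) the ranges were 0.603 to 0.678 in MHCC97L, 4.53 to 5.11 in MHCC97L-Oxa and 10.8 to 12 in MHCC97L-Src.

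Against MHCC97L, the log2 fold change of PTGS1 in MHCC97L-Src was 4.25 ± 0.27 (SE, 95% interval 3.65 to 4.85), or 19-fold, with an adjusted p of 5.39e-04 by edgeR's quasi-likelihood test. It ranked 32 by absolute log2 fold change among the 12037 genes tested. Against MHCC97L, MHCC97L-Oxa differed by 2.93 ± 0.27 (95% interval 2.30 to 3.56), or 7.64-fold, with an adjusted p of 0.00898, and PTGS1 ranked 49 among 12064 genes. Both values use the same 3 MHCC97L libraries. Compared directly, MHCC97L-Src exceeded MHCC97L-Oxa by 1.31 ± 0.11 (95% interval 1.06 to 1.56), or 2.48-fold, with an adjusted p of 1.66e-04.

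PTGS1 kept its rise in MHCC97L-Src in each of 17 other fits, with log2 fold changes of 2.93 to 4.39 and a highest adjusted p of 0.0141. The rise in MHCC97L-Oxa was 1.82 to 3.10 over 17 fits, but its adjusted p reached 0.05 or more in 4 of them. These were the fits without MHCC97L replicate 3 (2.96, adjusted p = 0.0786) and without MHCC97L-Oxa replicate 1 (2.87, 0.117), 2 (2.96, 0.0949) or 3 (2.98, 0.0843), in each of which edgeR called 2 genes in all. Without MHCC97L replicate 1, the library that stood apart, the values were 4.19 in MHCC97L-Src and 2.92 in MHCC97L-Oxa, with adjusted p-values of 5.23e-05 and 6.69e-04. The lowest fold changes of PTGS1 came from log2(FPKM + 1), a scale on which the pseudocount exceeds the MHCC97L level.

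**Figure D1:**
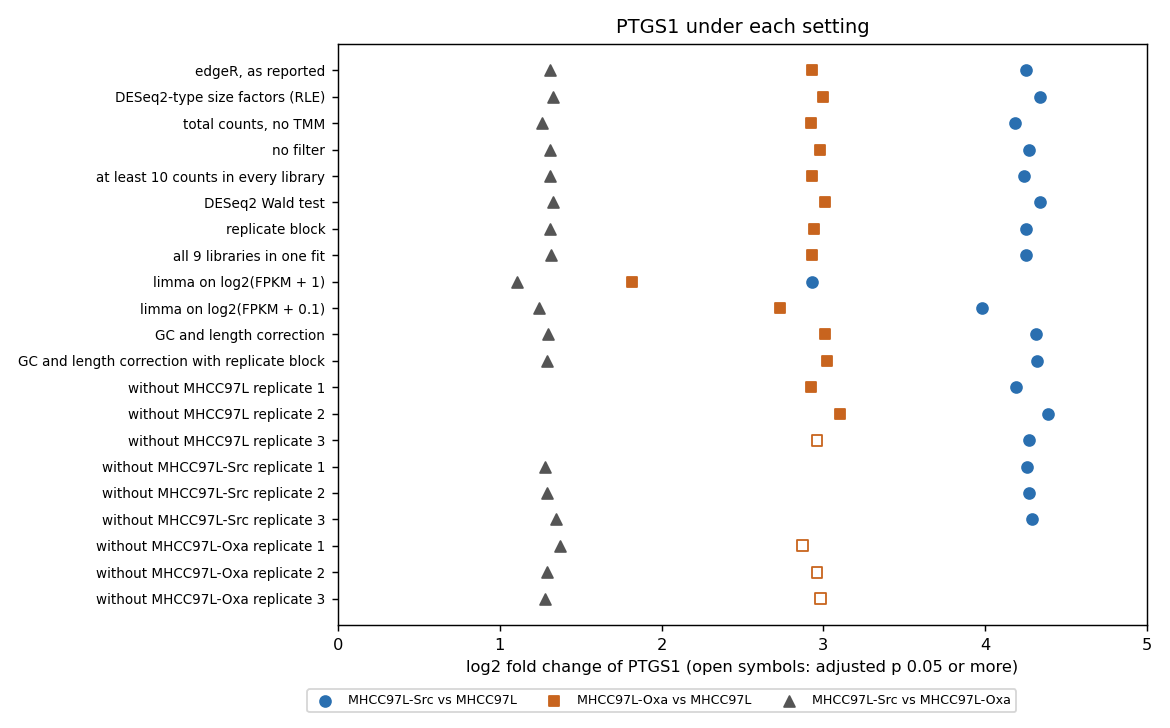
Log2 fold change of PTGS1 (horizontal axis) in each of 3 comparisons under each setting (vertical axis). Filled symbols have an adjusted p under 0.05 and open symbols do not. Fold changes stay within 2.93 to 4.39 for MHCC97L-Src and within 1.82 to 3.10 for MHCC97L-Oxa against MHCC97L, and the 4 open symbols all belong to MHCC97L-Oxa against MHCC97L.

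PTGS2, which encodes the inducible COX2, was near absence in all lines. It was at 0 in all 3 MHCC97L libraries. It had 5 counts in MHCC97L-Oxa replicate 2 and 0 in replicates 1 and 3, and 2, 0 and 3 counts in MHCC97L-Src. Of the 9 libraries, 8 were therefore at or under the floor, and no fold change is given. PTGS2 was not kept by edgeR's filter on low counts. The GC content of its longest transcript is 36.9%.

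**Figure D2:**
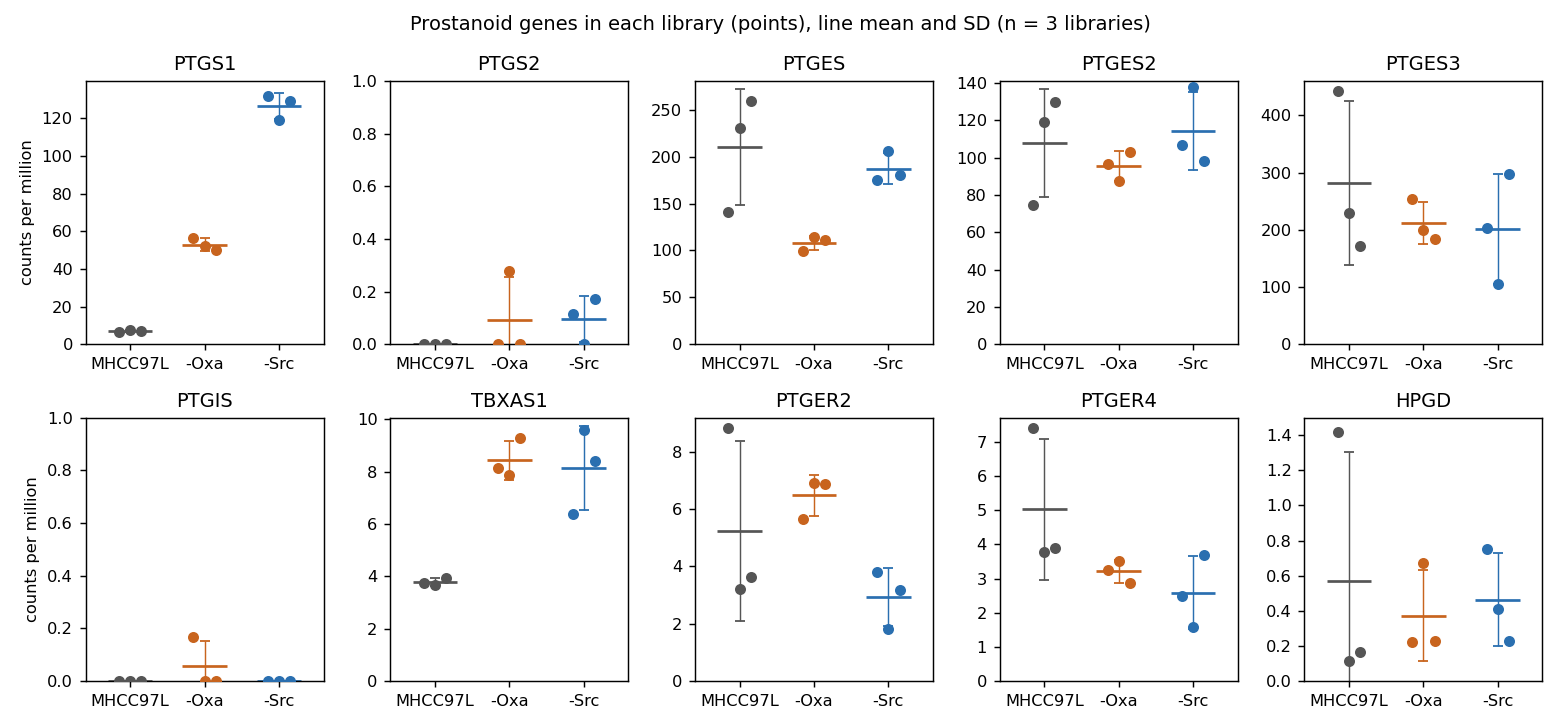
CPM (vertical axis, a scale of its own per gene) of the 10 prostanoid genes in each library (points) by line, with line mean and SD (n = 3). PTGS1 separates the lines at means of 6.97, 52.9 and 127, while PTGS2 does not exceed 0.279.

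The E synthases were the most abundant members. PTGES encodes the inducible microsomal enzyme, PTGES2 a membrane-associated enzyme, and PTGES3 a cytosolic enzyme also known as p23, a co-chaperone of HSP90. Over the 9 libraries the median FPKM was 87 for PTGES, 42.2 for PTGES3 and 34.3 for PTGES2, against 4.75 for PTGS1. PTGES, between 48.6 and 130 FPKM, lay above PTGES2, between 25.3 and 44, in all libraries, while PTGES3, between 21 and 91.9, overlapped both.

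PTGES had 2486, 4092 and 4650 counts in wild-type replicates 1 to 3. The MHCC97L-Oxa libraries held 1813, 2043 and 1973 counts, and those of MHCC97L-Src 3029, 3500 and 3170. The 3 MHCC97L-Oxa libraries lay below all others, and MHCC97L-Src lay inside the range of MHCC97L. MHCC97L-Src exceeded MHCC97L-Oxa by 0.85 ± 0.13 on the log2 scale (95% interval 0.56 to 1.14), or 1.8-fold, with an adjusted p of 0.00507. This passed in every other fit except that of all 9 libraries together, where the value was 0.86 with an adjusted p of 0.267.

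Against MHCC97L, PTGES differed by -0.96 ± 0.28 in MHCC97L-Oxa (adjusted p = 0.161) and by -0.11 ± 0.30 in MHCC97L-Src (adjusted p = 0.826). Replicate 1 was the lowest of the MHCC97L libraries for PTGES, whose transcript has a GC content of 56.9%. Without that library the value in MHCC97L-Oxa was -1.12 with an adjusted p of 0.00135, and with correction for GC content and length it was -1.21 with an adjusted p of 0.00279. With that correction the value in MHCC97L-Src was -0.49 (adjusted p = 0.0442), and without MHCC97L replicate 2 or 3 it was 0.05 or 0.08. The part of GC content in these values was not tested.

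PTGES2 had 1323, 2111 and 2340 counts in the wild type, 1758, 1564 and 1838 for MHCC97L-Oxa and 1847, 2334 and 1727 for MHCC97L-Src. The 3 lines overlapped, and wild-type replicate 1 held the lowest value of the 9. Its log2 fold changes were 0.15 ± 0.31 in MHCC97L-Src and -0.17 ± 0.27 in MHCC97L-Oxa against MHCC97L, and 0.32 ± 0.17 between the resistant lines. None passed the test. With GC and length correction, PTGES2, at 65.7% the most GC-rich member, was at -0.34 in MHCC97L-Src (adjusted p = 0.0995) and at -0.50 in MHCC97L-Oxa (adjusted p = 0.0298).

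PTGES3 had 7820, 4058 and 3078 counts in wild-type replicates 1 to 3. The MHCC97L-Oxa libraries held 4606, 3591 and 3248 counts, and those of MHCC97L-Src 3514, 1783 and 5216. The lines overlapped, and libraries of a line differed by up to 2.93 times. Its log2 fold changes of -0.41 ± 0.40, -0.36 ± 0.32 and -0.04 ± 0.27, in the order MHCC97L-Src and MHCC97L-Oxa against MHCC97L and MHCC97L-Src against MHCC97L-Oxa, did not pass. All 3 turned positive with GC and length correction, at 0.33, 0.24 and 0.07. The GC content of this transcript is 42.9%, and release 29 names 5 pseudogenes after PTGES3, among which the authors' counting could split reads.

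TBXAS1, the thromboxane synthase best known from platelets and macrophages, had 66, 65 and 71 counts in the wild type. The MHCC97L-Oxa libraries held 148, 141 and 165 counts, and those of MHCC97L-Src 111, 163 and 148. Every resistant library lay above every MHCC97L library in counts. The log2 fold changes were 1.17 ± 0.35 (95% interval 0.36 to 1.98) in MHCC97L-Oxa and 1.18 ± 0.41 (0.24 to 2.12) in MHCC97L-Src, and neither passed the test over all genes (adjusted p = 0.168 and 0.122). DESeq2's Wald test gave adjusted p-values of 0.00948 and 0.0212. Without MHCC97L replicate 1, edgeR gave 1.20 in MHCC97L-Oxa with an adjusted p of 0.0203. With GC and length correction the values were 0.97 in MHCC97L-Oxa (adjusted p = 0.0341) and 0.92 in MHCC97L-Src (0.0758). With all 9 libraries in one edgeR fit the adjusted p was 0.065 in MHCC97L-Oxa and 0.0379 in MHCC97L-Src. Of 17 other fits, 3 called TBXAS1 in MHCC97L-Oxa and 2 in MHCC97L-Src. The resistant lines differed by 0.01 ± 0.23 (-0.50 to 0.52).

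In FPKM, TBXAS1 was less clearly separated. It was at 0.103, 0.186 and 0.118 in the wild type, at 0.239, 0.258 and 0.327 for MHCC97L-Oxa and at 0.293, 0.374 and 0.179 for MHCC97L-Src. MHCC97L-Src replicate 3 thus fell under MHCC97L replicate 2. The FPKM per 1000 counts ran from 1.21 to 2.86 between libraries for TBXAS1, against 4.94 to 5.35 for PTGS1, so its 2 units do not carry the same information. On the opposite strand TBXAS1 overlaps HIPK2, and the sources do not say whether counting used the strand, so reads of these genes may not be separable.

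PTGIS, the synthase of prostacyclin, was at 0 in 8 libraries and at 3 counts in MHCC97L-Oxa replicate 1. Every library was therefore at or under the floor, and no fold change is given.

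Of the E receptors, PTGER2 had 156, 57 and 65 counts in the wild type. The MHCC97L-Oxa libraries held 103, 124 and 122 counts, and those of MHCC97L-Src 66, 31 and 56. MHCC97L-Src lay below MHCC97L-Oxa in all libraries, and the wild type overlapped both, with replicate 1 far above its other libraries. The log2 fold change of MHCC97L-Src against MHCC97L-Oxa was -1.09 ± 0.28 (95% interval -1.71 to -0.48), with an adjusted p of 0.0538. In 6 of 17 other fits this fell under 0.05, as with DESeq2 (0.00855), with GC and length correction (0.0276) and without MHCC97L-Src replicate 2 (0.0488) or 3 (0.0303). Against MHCC97L the values were -0.74 ± 0.52 in MHCC97L-Src and 0.36 ± 0.45 in MHCC97L-Oxa, neither of which passed. Without MHCC97L replicate 1, PTGER2 in MHCC97L-Oxa stood at 0.98 with an adjusted p of 0.0483.

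PTGER4 had 131, 67 and 70 counts in the wild type. Counts were 59, 63 and 51 for MHCC97L-Oxa and 43, 27 and 65 for MHCC97L-Src. Every resistant library lay below every MHCC97L library, by 2 counts at the nearest. The log2 fold changes were -0.88 ± 0.48 in MHCC97L-Src and -0.61 ± 0.40 in MHCC97L-Oxa (adjusted p = 0.237 and 0.349). Without MHCC97L replicate 1 they were -0.52 and -0.20. PTGER4 overlaps TTC33 on the opposite strand, and 2 pseudogenes are named after it.

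HPGD, the dehydrogenase that starts the breakdown of prostaglandin E2, had 25, 2 and 3 counts in the wild type. Counts were 4, 12 and 4 for MHCC97L-Oxa and 13, 7 and 4 for MHCC97L-Src. Its highest value was in MHCC97L replicate 1, and the lines overlapped. It was not kept by the filter. Its transcript has a GC content of 38.8%.

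Per length, the order of the members by median FPKM over the 9 libraries was PTGES, PTGES3, PTGES2, PTGS1, PTGER2 (2.03), PTGER4 (0.784), TBXAS1 (0.239) and HPGD (0.0542), with PTGS2 and PTGIS at 0. Neighbours in this order had overlapping ranges, except that PTGES2 lay above PTGS1 (at most 12 FPKM) in all libraries. The place of PTGS1 depended on the line, since in MHCC97L all its libraries lay below those of PTGER2 (1.76 to 4.7 FPKM).

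**Figure D3:**
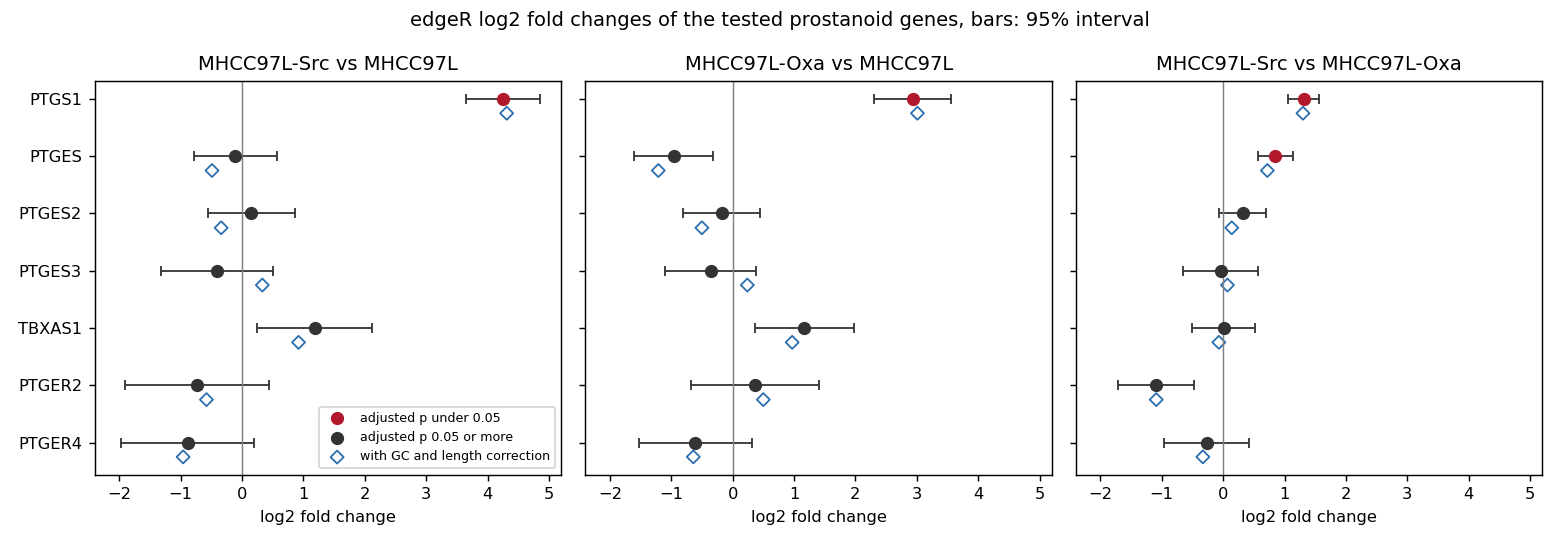
Log2 fold changes (horizontal axis, bars: 95% interval) of the 7 tested members in 3 comparisons. Red circles have an adjusted p under 0.05 and diamonds show the fit with GC and length correction. PTGS1 lies at 4.25, 2.93 and 1.31, and the diamonds of PTGES3 lie on the other side of 0. So do those of PTGES2 in MHCC97L-Src against MHCC97L (-0.34) and of TBXAS1 between the resistant lines (-0.07).

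In each comparison 7 of the 10 members were tested, all but PTGS2, PTGIS and HPGD. In MHCC97L-Src against the wild type 1 of the 7 passed, as a rise, where 2.13% of all genes tested passed, 1.43% as rises and 0.698% as falls. In MHCC97L-Oxa it was again 1, as a rise, beside 0.953% of all genes, 0.771% as rises and 0.182% as falls. Between the resistant lines 2 of 7 passed, both higher in MHCC97L-Src, beside 4.64% of all genes, 2.12% higher and 2.52% lower. With GC and length correction 2, 4 and 3 of the 7 passed, beside 10.9%, 13.1% and 9.46% of all genes. Without MHCC97L replicate 1 it was 1 in MHCC97L-Src and 4 in MHCC97L-Oxa, beside 5.52% and 18.5%. Members without overlap between the lines numbered 3 (2 higher, 1 lower) in MHCC97L-Src and 4 (2 higher, 2 lower) in MHCC97L-Oxa, and 3 (2 higher, 1 lower) between the resistant lines. Of all genes tested 30.5%, 29.5% and 27.6% did not overlap, 18.3%, 19.1% and 13.2% higher and 12.2%, 10.5% and 14.4% lower. The median log2 fold change of the 7 was -0.11, -0.17 and 0.01, beside -0.16, -0.19 and -0.02 for all genes. Nothing is read from these counts, since the members were chosen with the comparisons known.

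Besides arachidonic acid and prostanoid genes, the 77 other genes listed include 7 for PTGS2 mRNA stability and 11 cyclic AMP and CREB response genes. NR4A2, which passed in MHCC97L-Src against MHCC97L, is of the response list. ZFP36L1, which passed between the resistant lines, is of the stability list. Of the 77, 75 were in the tables, 10 were at 0 in all 9 libraries and 57 exceeded the floor in at least 1. In MHCC97L-Src against MHCC97L, 1 of 46 tested passed by edgeR (2.13% of all genes), 9 had an unadjusted p under 0.05 (29.5% of all genes) and DESeq2 called 4 (17.6%). In MHCC97L-Oxa, 0 of 44 passed by edgeR (0.953%), 5 had an unadjusted p under 0.05 (22.4%) and DESeq2 called 1 (7.57%). Between the resistant lines 3 of 45 passed (4.64%), 1 higher in MHCC97L-Src and 2 lower, 15 had an unadjusted p under 0.05 (19.5%) and DESeq2 called 6 (7%). The median log2 fold changes were 0.09, 0.13 and 0.05. With GC and length correction 7, 5 and 7 of them passed, beside the shares of all genes given above.

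**Figure D4:**
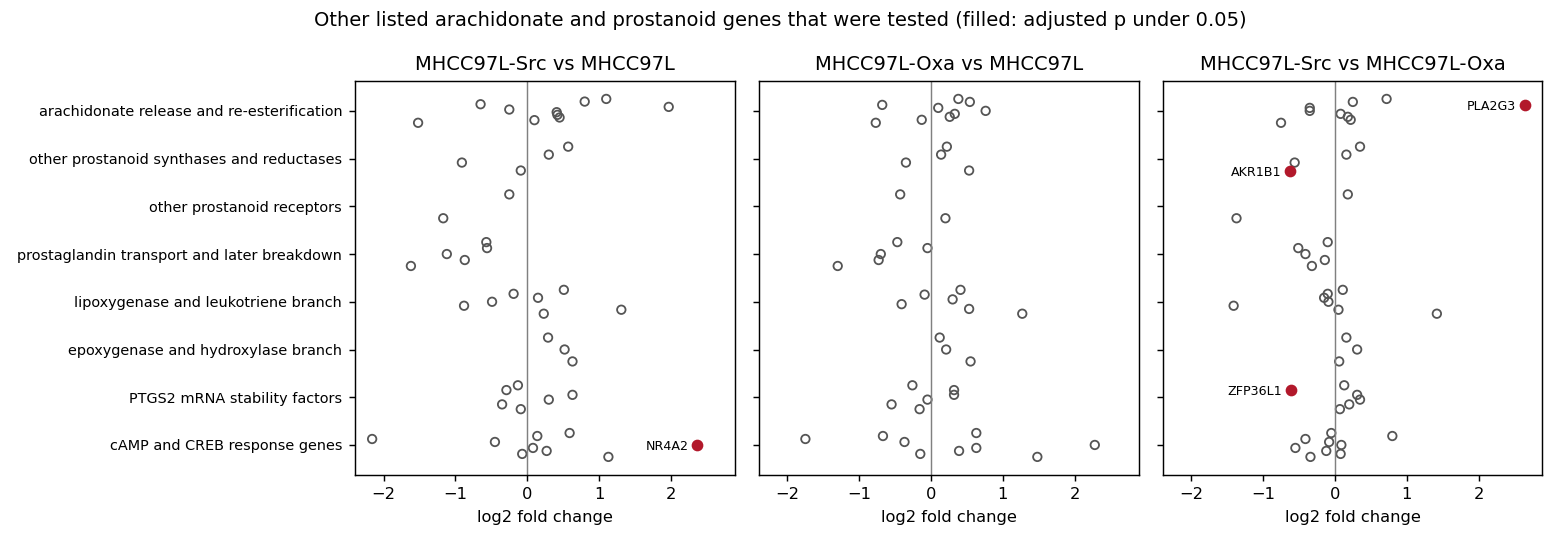
Log2 fold changes (horizontal axis) of the other listed genes that were tested, by list (vertical axis) and comparison, filled and named where the adjusted p was under 0.05. The 4 filled points are NR4A2 at 2.37, PLA2G3 at 2.65, AKR1B1 at -0.62 and ZFP36L1 at -0.61.

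Upstream of the cyclooxygenases, 15 genes of arachidonate release and re-esterification were listed. PLA2G4A, the cytosolic phospholipase that releases arachidonic acid in many cells, had 5 to 27 counts in all libraries. PLA2G3, a secreted phospholipase, had 107, 106 and 107 counts for MHCC97L-Src against 22, 21 and 12 for MHCC97L-Oxa. The difference was 2.65 ± 0.29 on the log2 scale, with an adjusted p of 8.22e-04, and it passed in every other fit. In MHCC97L it had 23, 26 and 39 counts, below MHCC97L-Src in every library. That difference of 1.97 ± 0.44 had an adjusted p of 0.0636, or 0.0352 without MHCC97L replicate 1 and 0.0129 without MHCC97L replicate 2. Without MHCC97L replicate 3 it was 0.15, and without MHCC97L-Src replicate 1, 2 or 3 it was 0.192, 0.206 and 0.199. The difference also passed with GC and length correction (1.62, adjusted p = 0.0109), by DESeq2, without a filter, with the replicate block and with all 9 libraries. It did not pass with other scalings, with at least 10 counts in every library, by limma, or with GC and length correction and the block together. No other gene of this list passed by edgeR as reported. PLA2G6, a calcium-independent phospholipase, had 409, 395 and 339 counts for MHCC97L-Src, 274, 221 and 258 for MHCC97L-Oxa and 150, 226 and 199 in the wild type. Its difference between MHCC97L-Src and the wild type was 1.10 ± 0.37 (adjusted p = 0.117), with adjusted p-values of 0.0181 by DESeq2 and 0.0323 with GC and length correction. PLA2G15, a lysosomal phospholipase, differed between MHCC97L-Oxa and the wild type by 0.76 ± 0.29 (adjusted p = 0.206), or by 0.61 (0.0244) with GC and length correction and 0.60 (0.0135) without MHCC97L replicate 1.

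Of the 6 other prostanoid synthases and reductases in the tables, AKR1B1 and CBR1 were abundant. AKR1B1, an aldose reductase with prostaglandin F synthase activity, had 10978, 11007 and 10185 counts for MHCC97L-Src against 17349, 17573 and 18663 for MHCC97L-Oxa. The log2 difference was -0.62 ± 0.11 with an adjusted p of 0.0129, and the wild type, at 8177, 13217 and 15403, lay below MHCC97L-Oxa and on both sides of MHCC97L-Src. The difference no longer passed without MHCC97L-Oxa replicate 1 (-0.65, adjusted p = 0.0592), 2 (-0.65, 0.0753) or 3 (-0.58, 0.0893), without MHCC97L-Src replicate 1 (-0.63, 0.105), and in the fit of all 9 libraries (0.607). Against the wild type without its replicate 1, AKR1B1 in MHCC97L-Oxa stood at 0.37 with an adjusted p of 0.0297. The D synthase gene HPGDS was at 0 in all libraries and PTGDS had at most 11 counts.

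Of the 7 other prostanoid receptors, TBXA2R and PTGFR were tested and neither passed by edgeR as reported. TBXA2R, the thromboxane receptor, had 243 to 388 counts over the 9 libraries, and PTGFR, the receptor of prostaglandin F, had 9 to 69. With GC and length correction TBXA2R was lower than in the wild type in both resistant lines, at -0.68 for MHCC97L-Src (adjusted p = 0.0327) and -0.70 for MHCC97L-Oxa (0.0243), against -0.25 ± 0.38 and -0.43 ± 0.33 without it. PTGER1, PTGER3 and PTGDR2 did not exceed 2 counts, PTGDR was at 0 throughout and PTGIR, the prostacyclin receptor, had at most 4. The 5 tested genes of transport and later breakdown had median log2 fold changes of -0.87 and -0.70 in MHCC97L-Src and MHCC97L-Oxa, and none passed by edgeR as reported. These medians were -0.14 and -0.01 with GC and length correction. ABCC4, a transporter that exports prostaglandins, had -1.62 ± 0.66 in MHCC97L-Src and -1.30 ± 0.66 in MHCC97L-Oxa. Corrected in the same way, these 2 values were -0.47 and -0.32, and MHCC97L replicate 1 held 301 of its counts against 46 and 90 in the other MHCC97L libraries.

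The lipoxygenase and epoxygenase branches use the same fatty acid, and none of their 6 or 7 and 3 tested genes passed by edgeR as reported. LTA4H, the leukotriene A4 hydrolase, had 3194, 1068 and 977 counts in the wild type, 2204, 2135 and 1951 for MHCC97L-Oxa and 1782, 1286 and 2256 for MHCC97L-Src. Wild-type replicate 1 held the highest value, and the other wild-type libraries lay below every resistant one. The log2 fold changes of LTA4H were 0.15 ± 0.42 in MHCC97L-Src and 0.30 ± 0.41 in MHCC97L-Oxa. With GC and length correction they were 1.28 and 1.20 (adjusted p = 0.0247 and 0.0319), and without MHCC97L replicate 1 they were 0.88 and 1.08 (0.0499 and 0.00174). Of 7 proteins listed for binding PTGS2 mRNA and setting its stability, ZFP36L1 passed between the resistant lines. The MHCC97L-Src libraries held 2679, 2138 and 2899 counts and those of MHCC97L-Oxa 4316, 4505 and 3823, a difference of -0.61 ± 0.11 with an adjusted p of 0.0124. The difference no longer passed without MHCC97L-Oxa replicate 1 (-0.60, 0.0742) or 2 (-0.57, 0.106), without MHCC97L-Src replicate 1 (-0.64, 0.0815) and in the fit of all 9 libraries (0.166). Against the wild type without its replicate 1, ZFP36L1 in MHCC97L-Oxa stood at 0.39 with an adjusted p of 0.0394. Of 11 cyclic AMP and CREB response genes, 9 were tested against the wild type. By edgeR as reported 1 passed in MHCC97L-Src (2.13% of all genes) and 0 in MHCC97L-Oxa (0.953%). The median log2 fold changes of the 9 were 0.14 and 0.39, and a cyclic AMP response was not tested. The 1 that passed was NR4A2, an orphan nuclear receptor. It had 193, 119 and 66 counts in the wild type against 674, 325 and 825 for MHCC97L-Src.

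NR4A2 rose by 2.37 ± 0.49 in MHCC97L-Src, with an adjusted p of 0.0474. In MHCC97L-Oxa it had 691, 591 and 528 counts, and its log2 fold change of 2.28 ± 0.42 had an adjusted p of 0.0528. In MHCC97L-Oxa NR4A2 passed without MHCC97L replicate 1 (2.74, 0.00384) or 2 (2.37, 0.0135), by DESeq2 (2.35, 1.32e-06), with GC and length correction (2.56, 0.0024), and with DESeq2-type size factors, no filter, the replicate block, all 9 libraries and limma. It did not pass without MHCC97L replicate 3 (1.98, 0.144), without MHCC97L-Oxa replicate 1 (2.17, 0.291), 2 (2.31, 0.279) or 3 (2.36, 0.248), with total counts (0.06) or with at least 10 counts in every library (0.0638). Every resistant library lay above every MHCC97L library. The rise in MHCC97L-Src no longer passed without MHCC97L replicate 3 (2.07, adjusted p = 0.137) and without MHCC97L-Src replicate 1 (2.33, 0.135), 2 (2.67, 0.0705) or 3 (2.16, 0.185), nor with total counts for scaling (2.30, 0.0801), with at least 10 counts in every library (0.0662) or by limma (0.0655 and 0.0833). Of the deposited KEGG set for arachidonic acid metabolism, 56 genes remained without the members. By edgeR, 0 of 21, 0 of 17 and 1 of 18 tested genes passed in the 3 comparisons, beside 2.13%, 0.953% and 4.64% of all genes. An unadjusted p under 0.05 was found for 6, 0 and 8 of them, beside 29.5%, 22.4% and 19.5%, and DESeq2 called 3, 0 and 4, beside 17.6%, 7.57% and 7%. With GC and length correction 5, 3 and 4 of them passed, beside 10.9%, 13.1% and 9.46% of all genes.

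Since PTGS1 and TBXAS1 are known from platelets, macrophages and mast cells, markers of such cells were read in every library. PF4, PPBP and GP9 of platelets, PTPRC, LYZ, CD3E and MS4A1 of leukocytes, and KIT, TPSAB1 and CPA3 of mast cells were at 0 in all 9 libraries. Of the 4 platelet markers only ITGA2B was found, at a mean of 1.59, 3.49 and 3.21 CPM in MHCC97L, MHCC97L-Oxa and MHCC97L-Src. The 6 leukocyte markers, of which CD68 and CD14 were found, summed to 49.7 to 80.5, 148 to 151 and 77.5 to 95.5 CPM in the same order. CD68 gave most of this sum, with means of 67.3, 145 and 82.6 CPM. CD14 was higher in both resistant lines, with means of 1.01, 4.77 and 5.8 CPM. The 4 endothelial markers summed to 2.22 to 2.61, 1.32 to 1.8 and 11.9 to 15.6 CPM, with KDR at 0, and CDH5 gave most of the MHCC97L-Src sum. The 5 fibroblast markers summed to 145 to 228, 168 to 186 and 84.5 to 99.5 CPM. DCN, with means of 70.3, 65.8 and 17.3 CPM, and PDGFRB, with 34.2, 31.1 and 11.9, gave most of the lower MHCC97L-Src sum. COL1A1 had means of 62.5, 77.2 and 63.3 CPM. The part of these moving markers in the values of PTGS1 was not tested. In bulk RNA a change in the number of cells that express a gene and a change in RNA per cell cannot be told apart.

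Across the 9 libraries, 10616 genes with a mean log2 CPM of at least 1 were compared with PTGS1. The 5 closest by Pearson correlation were S100A9 (r = 0.9964), a calcium-binding protein of the S100 family, GDF15 (0.9939), a stress-induced cytokine of the TGF-beta superfamily, DUSP4 (0.9930), a phosphatase of MAP kinases, TUBG2 (0.9913), a gamma-tubulin, and CMTM8 (0.9888). These values are a description over 9 libraries that share line, depth and base composition. S100A9 went from 0.75 CPM in MHCC97L to 13.7 in MHCC97L-Oxa and 36.9 in MHCC97L-Src. GDF15 went from 13.5 to 48.5 and 90.1 CPM in the same order. PTGS2 was too low for such a comparison.

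**Figure D5:**
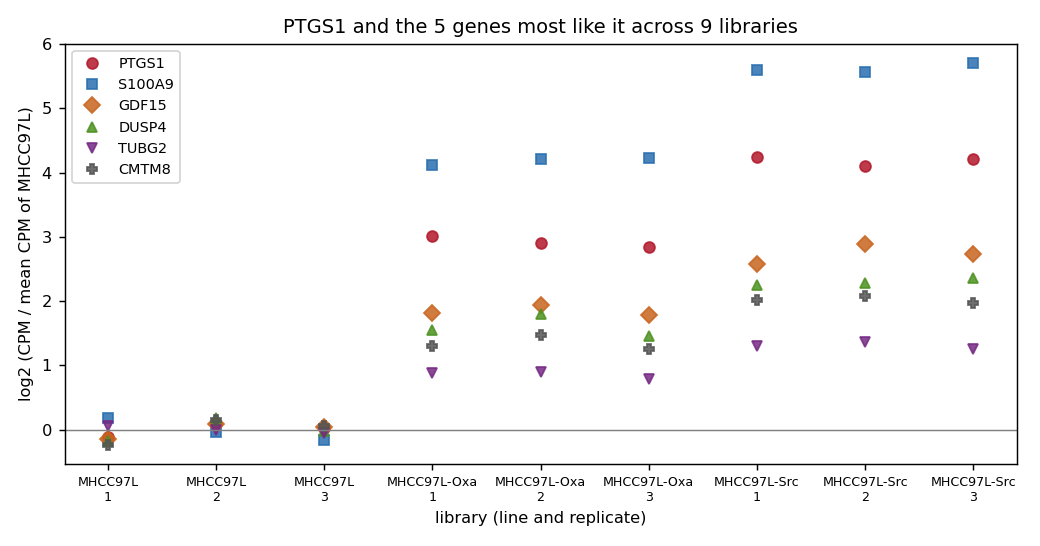
Log2 of CPM over the mean CPM of MHCC97L (vertical axis) for PTGS1 and the 5 genes most like it in each of the 9 libraries (horizontal axis). All 6 genes step up from MHCC97L to MHCC97L-Oxa and again to MHCC97L-Src, by different amounts.

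The neighbours of PTGS1 on chromosome 9, a set chosen after their values were seen, were also read. Of the 5 tested genes on either side in RefSeq order, 0 of 10 passed by edgeR or DESeq2 in either resistant line, and 2 had an unadjusted p under 0.05 in each. For MHCC97L-Src and MHCC97L-Oxa in turn, 2.13% and 0.953% of all genes passed by edgeR and 17.6% and 7.57% by DESeq2. An unadjusted p under 0.05 was found for 29.5% and 22.4% of all genes. Against the wild type the log2 fold changes of the 10 neighbours lay between -2.13 and 0.33 for MHCC97L-Src and between -2.05 and 0.87 for MHCC97L-Oxa, with medians of -0.95 and -0.74. These fold changes are without GC and length correction and include MHCC97L replicate 1.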

How the data were processed

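Poly(A) RNA of 3 libraries each of MHCC97L, MHCC97L-Src and MHCC97L-Oxa was sequenced from both ends in stranded libraries. The authors deposited raw read counts per gene, without normalization, and FPKM values for the same 20030 genes. The submitters' processing notes name Trimmomatic 0.36, HISAT2 2.2.1.0 and the build GRCh38.p12. The counting program and its annotation are not given in the sources used here. Libraries were grouped by the treatment in their labels, which spell the resistant lines MHCC97L-SRC and MHCC97L-OXA.

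Counts of the 6 libraries of each comparison were filtered by filterByExpr (minimum count 10), scaled by TMM and tested with the quasi-likelihood F-test of edgeR, with Benjamini-Hochberg adjustment over all genes tested. A gene passed at an adjusted p under 0.05. SE is the log2 fold change over the square root of F. CPM are counts over the total of the library. GC content and length of 19343 genes came from the longest GENCODE release 29 transcript. The correction entered natural splines (5 degrees of freedom each) of both as offsets.

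The members and gene lists were chosen with earlier results of these data known. All 10 members are named, with listed genes that passed, listed receptors and synthases by their level, and the 5 genes most like PTGS1. PLA2G4A, PLA2G6, PLA2G15, LTA4H, ABCC4, PTGDS, HPGDS and the receptors at or near 0 fall outside this rule and were named after their values were seen. Alternatives were DESeq2, other scalings, filters, FPKM by limma with a pseudocount of 1 or 0.1 (mean FPKM of at least 0.1), all 9 libraries, the replicate block and leaving out each library. Scripts were tested on simulated counts. Fits ran in edgeR 4.0.16, DESeq2 1.42.0 and limma 3.58.1 under R 4.3.3, tables and figures in pandas 2.3.3 and matplotlib 3.10.9 under Python 3.11.15.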

Additional observations from a re-analysis of the deposited data

Results flagged for a closer look

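PTGS1 was higher in MHCC97L-Src than in MHCC97L-Oxa by 1.31 on the log2 scale, a test of the difference between the rises of the resistant lines. PTGES also differed between the resistant lines, by 0.85 on the log2 scale, with all MHCC97L-Oxa libraries below those of MHCC97L-Src. For this flagging, groups of 3 libraries were not examined for single outlying values.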

How the results depend on the processing

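PTGS1 kept its direction under all alternatives in the 3 comparisons, and its adjusted p stayed under 0.05 in all of them for MHCC97L-Src and between the resistant lines. Counts below are given in the order members, other listed genes, all genes. For MHCC97L-Src against MHCC97L the counts of genes that passed were 1, 1 and 256. Of the other listed genes 0 passed with total counts for scaling. Other listed genes and all genes numbered 2 and 702 without a filter, and 0 and 162 with at least 10 counts in every library. DESeq2 gave 2, 4 and 2114, all 9 libraries in one fit 2, 5 and 1956, GC and length correction 2, 7 and 1313, and a threshold of 0.05 on the unadjusted p, together with 1 on the size of the log2 fold change, gave 2, 7 and 2966. limma on FPKM called 0 of the other listed genes with either pseudocount. Leaving out each library gave ranges of 1 to 1, 0 to 7 and 22 to 3419.

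For MHCC97L-Oxa against MHCC97L the counts were 1, 0 and 115. DESeq2 gave 2, 1 and 895, GC and length correction 4, 5 and 1580, and the unadjusted threshold 2, 3 and 1951. Of the other listed genes 1 passed with DESeq2-type size factors, without a filter, with all 9 libraries and with limma at either pseudocount. All genes numbered 211 with total counts, 495 with all 9 libraries, and 242 and 273 with limma. Leaving out each library gave 0 to 4, 0 to 8 and 2 to 2705. Between the resistant lines the counts were 2, 3 and 556. They were 1, 1 and 86 with all 9 libraries. For the other listed genes and all genes DESeq2 gave 6 and 839, GC and length correction 7 and 1135, and leaving out a library 1 to 8 and 167 to 1617. The cause of these moves was not tested.

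The labels do not say whether the replicate numbers pair the libraries. Same-numbered libraries deviated with correlations of 0.171, 0.217 and -0.65 for MHCC97L-Src and MHCC97L, and of -0.215, -0.134 and 0.444 for MHCC97L-Oxa and MHCC97L. Between the resistant lines they were 0.0305, -0.0851 and -0.292. These values cannot decide it, since differently numbered libraries of MHCC97L-Src and MHCC97L ranged as widely, from -0.526 to 0.659. With the replicate block 1, 3 and 988 genes passed for MHCC97L-Src, 1, 1 and 92 for MHCC97L-Oxa and 2, 3 and 406 between the resistant lines. With GC and length correction and the block together, 2 members, 3 other listed genes and 709 genes passed for MHCC97L-Oxa, and 6 other listed genes between the resistant lines.

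Signs turned for members near 0. Against MHCC97L, in MHCC97L-Src, PTGES was at 0.05 and 0.08 without MHCC97L replicate 2 or 3 (range over left-out libraries -0.32 to 0.08). PTGES2 was at -0.34 with GC and length correction, also with the block, and at -0.06 without MHCC97L replicate 1 and -0.04 without MHCC97L-Src replicate 2 (range -0.06 to 0.31). PTGES3 was at 0.33 with GC and length correction, at 0.35 with the block added, and at 0.04 without MHCC97L replicate 1 (range -0.73 to 0.04). In MHCC97L-Oxa, PTGES2 was at 0.01 without MHCC97L replicate 2 (range -0.32 to 0.01), and PTGES3 at 0.24, 0.27 and 0.13 with GC and length correction, with the block added and without MHCC97L replicate 1 (range -0.60 to 0.13). Between the resistant lines PTGES3 was at 0.07 with GC and length correction and at 0.05 with the block added, and at 0.11 and 0.22 without MHCC97L-Oxa replicate 1 or MHCC97L-Src replicate 2 (range -0.38 to 0.22). TBXAS1 was there at -0.05 with total counts, -0.01 with the replicate block, -0.07 with GC and length correction and -0.09 with both, and at -0.01, -0.05 and -0.20 without MHCC97L-Oxa replicate 1 or 2 or MHCC97L-Src replicate 2 (range -0.20 to 0.16). Depth limits PTGS2, PTGIS and HPGD, which held 10, 3 and 74 counts over the 9 libraries.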
